A study of Mus musculus with 20 samples.

Results

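Gene expression was followed over time in livers in which hepatocytes had been targeted at Hira, comparing 5 livers collected 6 months after injection with 5 collected 3 weeks after it, out of 20 liver libraries in the series. The libraries of each group were taken from the sample labels, and all 22867 genes with 10 or more counts in total over the 20 libraries were tested, of 55421 in the count table. Both HIRA groups were labelled as female wildtype C57BL/6 mice that received, at 6 months of age, an AAV8 vector carrying saCAS9 under the Tbg promoter and a U6-driven guide RNA against Hira. The study's text and a figure legend disagree on the sex of the mice of this time course, and the labels were used here. The Rosa26 groups, also 5 livers at each time, differed by label only in the guide, which was directed at the Rosa26 locus. The Tbg promoter is active in hepatocytes, so the other cells of these whole livers were not targeted. Time after injection and age rose together by design and cannot be told apart, and no group of untreated mice was used here. Because the libraries were made from whole tissue, fewer cells of a type and less RNA per cell cannot be told apart either. Totals ranged from 19916430 to 24079736 counts per library.

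Cells package DNA with a standard histone H3 when they copy it, and with the variant H3.3 at other times. HIRA is a chaperone for that variant, which builds up in cells that rarely divide, hepatocytes among them. Aging livers of mice are also known to gather plasma cells and lymphocytes, and cutting of DNA by a nuclease is known to induce genes driven by the transcription factor p53.

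The libraries were checked against their labels first. Hira itself had 5.81, 5.95, 4.36, 4.55 and 4.15 CPM (counts scaled to the TMM-adjusted library size) in replicates 1 to 5 at 3 weeks and 5.32, 4.96, 5.64, 5.48 and 6.51 CPM at 6 months. These values overlapped, and the log2 fold change over time was 0.17 ± 0.14 (SE; adjusted p = 0.787) and 0.11 ± 0.14 without the late replicate 5 (adjusted p = 0.851). In the Rosa26 libraries Hira had 6.04 to 8.54 CPM at 3 weeks, above all HIRA libraries of that time, and 4.82 to 7.32 CPM at 6 months, where the arms overlapped. The library labelled HIRA 6 months replicate 5 went against its label of female, with 9 counts of Xist, the RNA that silences an X chromosome in female cells, where the other 19 libraries had 6286 to 8436. It also held 2041 counts of 4 genes of the Y chromosome, where the others held 0 to 13, and 5045 counts of Cyp4a12a, a male liver enzyme, where the others held 0 to 5. The calls and the main list results are therefore also given without this library. The secreted hepatocyte proteins, a list of 41 genes that includes albumin, summed to between 217400 and 296700 CPM in all 10 HIRA libraries.

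Few genes passed the test over time in the HIRA livers. Past both thresholds, an absolute log2 fold change above 1 and an adjusted p under 0.05, stood 13 genes, 0.0569% of those tested, of which 10 were higher and 3 lower at 6 months. By adjusted p alone 11 genes rose (0.0481%) and 4 fell (0.0175%), the added pair being Lamb3 (0.87 ± 0.14, adjusted p = 0.0197) and Endog (-0.46 ± 0.09, adjusted p = 0.0441), which were named after their values were seen. Lamb3 overlaps Hsd11b1 on the opposite strand, which had 13933% of its counts, and Endog overlaps Spout1 with 54.3%, so both are uncertain. At an unadjusted p under 0.05 stood 2046 genes (8.95%), 1277 of them higher (5.58%) and 769 lower (3.36%). The 5 libraries of each time did not overlap in 12 of the 13 called genes, and in 336 of all genes tested (1.47%). Without HIRA 6 months replicate 5 the count rose to 25 genes (0.109%), 20 higher and 5 lower, and held all 13. By adjusted p alone 21 rose (0.0918%) and 7 fell (0.0306%) in that fit, and at an unadjusted p under 0.05 stood 1458 higher (6.38%) and 847 lower (3.7%). The count of 13 depended on other libraries as well. It was 5 or 6 when any of the 5 HIRA libraries of 3 weeks was left out, 20 without HIRA 6 months replicate 3 and 8 without HIRA 6 months replicate 4. DESeq2 called 74 genes, including the 13, and limma-voom called 6, of which 5 were among the 13. A fit on the 10 HIRA libraries alone called 11 genes, of which 5 were among the 13, and lost Ctcflos, Dmrta1, Eda2r, Efna5, Fitm1, Ighv1-53, Plin4 and Tmem28.

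**Figure D1:**
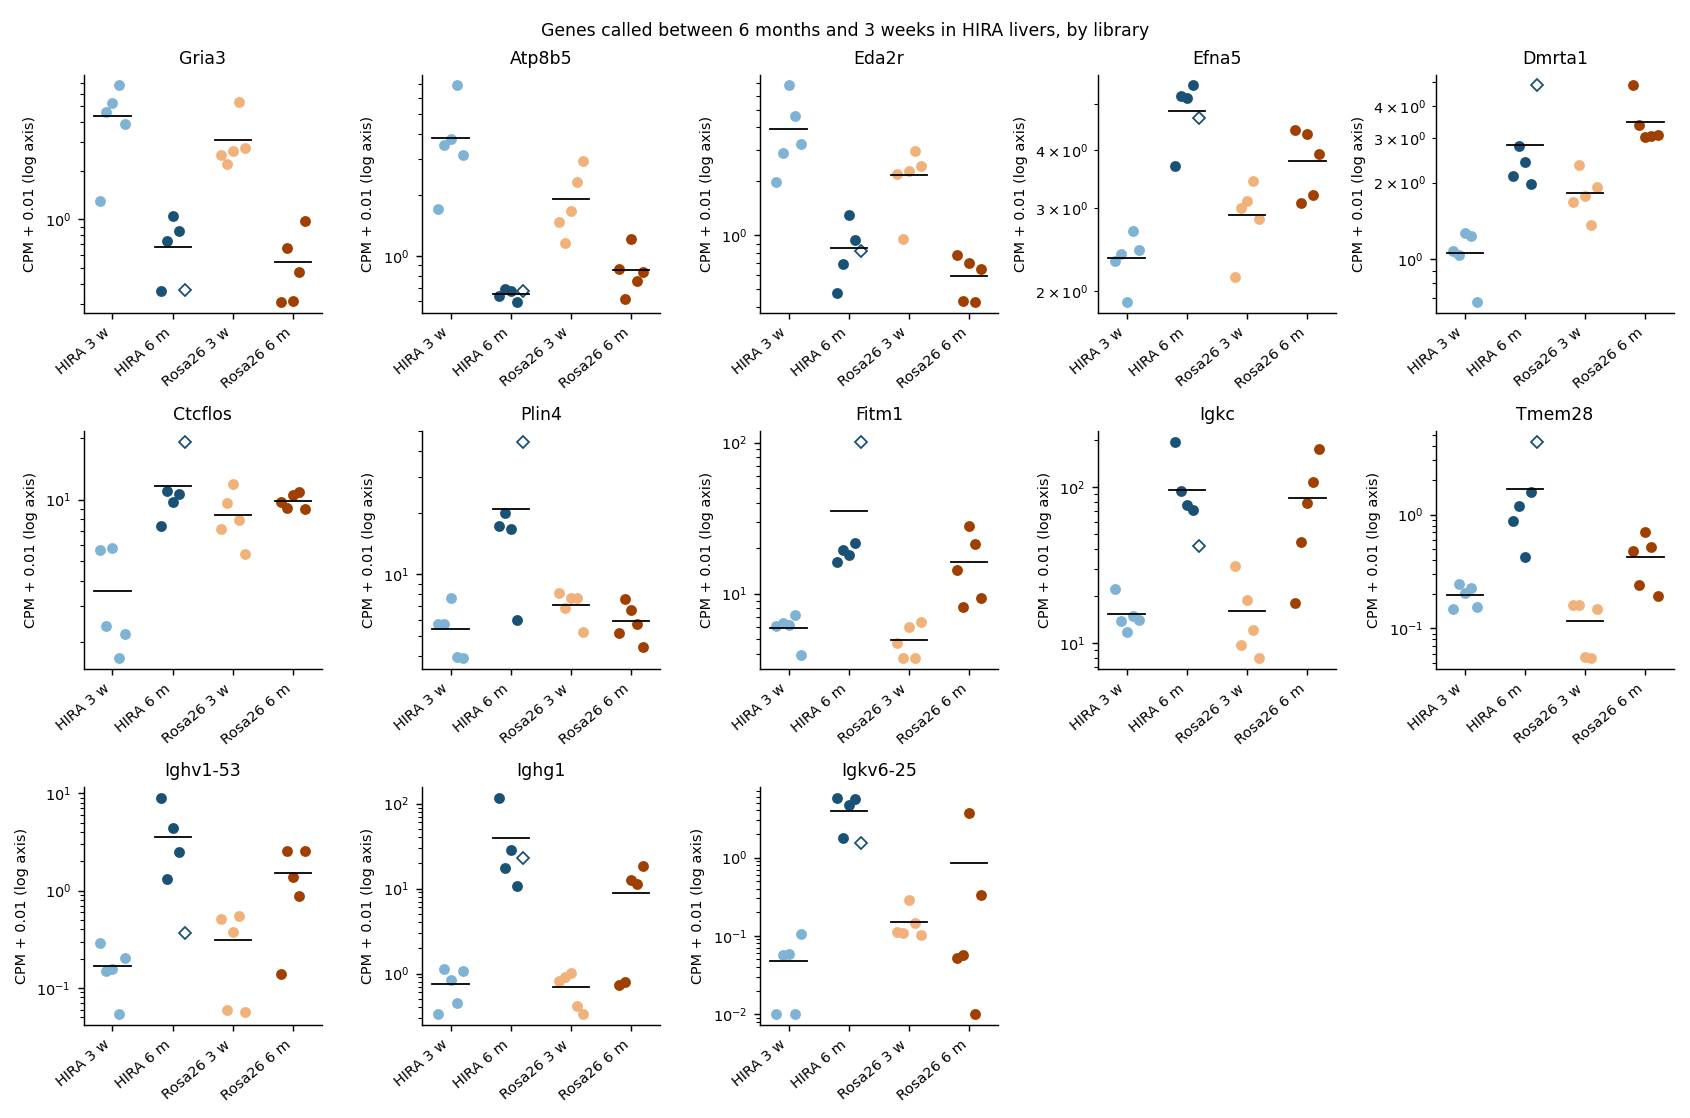
Level of the 13 called genes in each library, as CPM + 0.01 on a log axis, in the 4 groups of 5 libraries. Points are libraries, the open diamond is HIRA 6 months replicate 5 and the lines are group means. The first 3 panels are the genes that were lower at 6 months in the HIRA livers, and the HIRA groups overlap in Plin4 alone.

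The genes that fell were Gria3, Atp8b5 and Eda2r. Each of them, like Ighg1 among those that rose, was called in all 20 fits that left out a single library. By limma-voom the calls of Gria3 and Ighg1 were lost, and on the FPKM scale those of Gria3, Atp8b5 and Eda2r. Gria3 encodes a subunit of AMPA-type glutamate receptors (chromosome X, 41400854 to 41678601). Its level was 1.29, 4.59, 5.27, 6.74 and 3.86 CPM at 3 weeks and 0.352, 0.729, 1.04, 0.831 and 0.356 CPM at 6 months. Every library of 6 months lay below every library of 3 weeks, with replicate 1 the lowest of the early livers. The log2 fold change was -2.71 ± 0.41 (adjusted p = 0.00821) and -2.56 ± 0.43 without replicate 5 (adjusted p = 0.0201).

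Atp8b5 encodes a P4-type ATPase, a family that moves phospholipids between the leaflets of membranes (chromosome 4, 43267159 to 43373833). It was measured at 1.71, 3.51, 3.77, 6.92 and 3.15 CPM at 3 weeks and at 0.626, 0.683, 0.664, 0.587 and 0.661 CPM at 6 months. The late libraries lay close together while the early ones spread over a wide range. The fall of 2.56 on the log2 scale had an SE of 0.32 and the smallest adjusted p of all genes (0.00173), and it was -2.56 ± 0.35 without replicate 5 (adjusted p = 0.0043).

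Eda2r encodes the receptor for the A2 form of ectodysplasin and is a known target of p53 (chromosome X, 97333840 to 97377216). Its level was 1.98, 2.86, 6.82, 4.60 and 3.20 CPM at 3 weeks and 0.469, 0.683, 1.29, 0.929 and 0.813 CPM at 6 months. No late library reached the lowest early library. The log2 fold change was -2.21 ± 0.34 (adjusted p = 0.00821) and -2.20 ± 0.37 without replicate 5 (adjusted p = 0.0201). It lost its call when the Rosa26 libraries were left out of the fit, as it did on the FPKM scale.

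Among 27 p53 targets, Eda2r was the sole gene of the list that fell and none rose, with a median log2 fold change of -0.29 against 0.03 over all genes tested. At an unadjusted p under 0.05, 14 of the 27 were lower and 0 higher, where 3.36% of all genes were lower and 5.58% higher by this rule. Without replicate 5 these counts were 14 and 1 and the median was -0.36. In that fit Aen, a nuclease induced in apoptosis, fell as well (-0.90, adjusted p = 0.0423; -0.83 ± 0.17 and 0.0687 with it). Phlda3, an inhibitor of AKT signalling, had a value of -1.71 ± 0.34 (adjusted p = 0.0588). The values were -0.80 ± 0.17 for Zmat3 and -0.68 ± 0.16 for Ccng1, a cyclin, with adjusted p of 0.105 and 0.12. Early and late libraries were fully separate for 3 of the 27, Eda2r, Cdkn1a and Polk, where they were for 1.47% of all genes tested. Summed over the list, the level was 821, 711, 928, 828 and 789 CPM at 3 weeks and 618, 651, 695, 629 and 646 CPM at 6 months. All late sums lay below all early sums.

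Cdkn1a, the cell cycle inhibitor p21 and the best known target of p53, was measured at 14.8, 17.3, 64.3, 23.7 and 19.7 CPM at 3 weeks and at 13.1, 12.8, 12.8, 3.67 and 5.29 CPM at 6 months. Late libraries of Cdkn1a all lay below the early ones, but the fold change of -1.54 ± 0.42 did not pass the test (adjusted p = 0.2; -1.39 ± 0.44 and 0.263 without replicate 5). In the Rosa26 livers it went from 41.4 to 121 CPM at 3 weeks down to 3.50 to 9.34 CPM at 6 months, a log2 fold change of -3.61 ± 0.45 (adjusted p = 0.00196). The difference between the arms was 2.07 ± 0.59 (unadjusted p = 0.00224, adjusted p = 0.614). At 3 weeks all 5 HIRA libraries but replicate 3 lay below the lowest Rosa26 library. Over the list, 4 p53 targets fell in the Rosa26 livers (Cdkn1a, Aen, Eda2r and Phlda3) and 1 rose (Bbc3), with a median of -0.40. Of all genes tested 0.179% fell and 0.144% rose there. Bbc3, which encodes the apoptosis factor PUMA, had 0.00 ± 0.14 in the HIRA livers (adjusted p = 0.994) and 0.66 in the Rosa26 livers (adjusted p = 0.044).

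**Figure D2:**
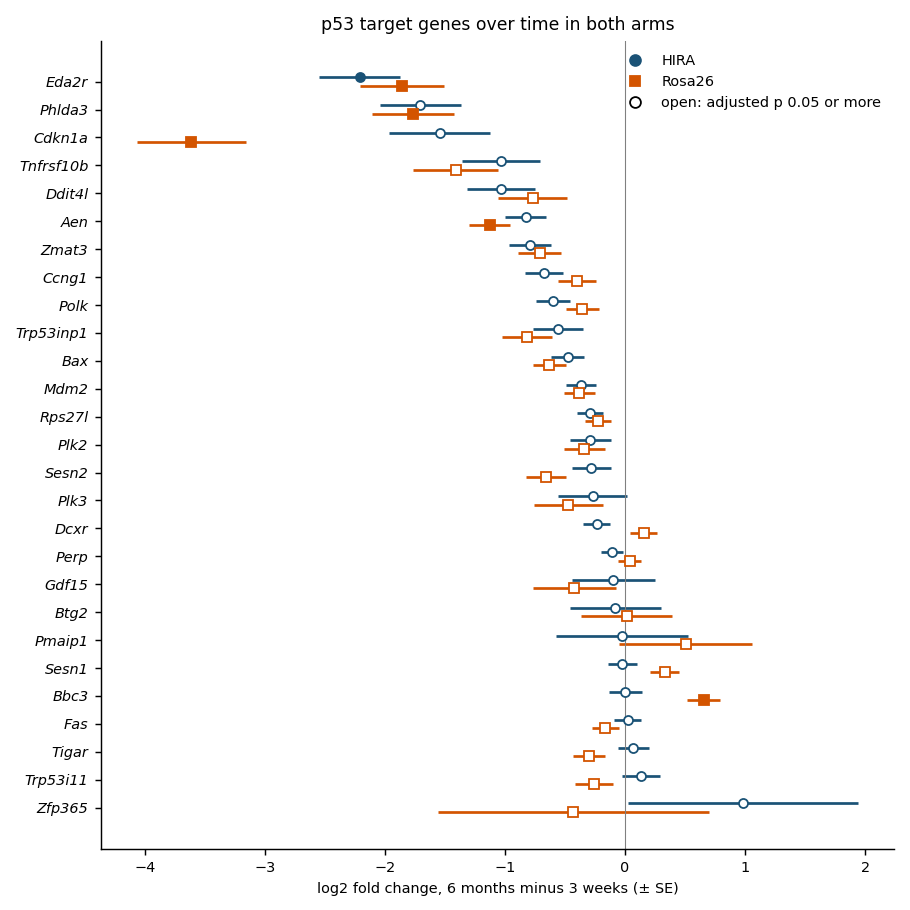
Log2 fold change with its SE, 6 months minus 3 weeks, for 27 p53 targets in the HIRA livers (circles) and the Rosa26 livers (squares), with filled marks for an adjusted p under 0.05. Eda2r is the filled circle at -2.21, and Cdkn1a lies at -1.54 in the HIRA livers against -3.61 in the Rosa26 livers.

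The promoters of Eda2r and of Aen, which fell when replicate 5 was left out, are shown because p53 acts by binding DNA near its targets. They run from 250 bases before to 50 after the start of transcription (RefSeq, GRCm38.p6), and capitals mark a p53 half-site, the element of which a full p53 site holds a pair, searched on both strands. Eda2r, chrX:97377160-97377459, on the minus strand, held none. Aen, chr7:78895808-78896107, on the plus strand, held 1.
Eda2r: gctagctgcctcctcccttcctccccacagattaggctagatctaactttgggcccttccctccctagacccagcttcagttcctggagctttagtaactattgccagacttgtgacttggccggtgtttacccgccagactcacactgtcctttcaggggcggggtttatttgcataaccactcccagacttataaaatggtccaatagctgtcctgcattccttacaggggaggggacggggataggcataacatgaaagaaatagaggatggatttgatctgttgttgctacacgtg
Aen: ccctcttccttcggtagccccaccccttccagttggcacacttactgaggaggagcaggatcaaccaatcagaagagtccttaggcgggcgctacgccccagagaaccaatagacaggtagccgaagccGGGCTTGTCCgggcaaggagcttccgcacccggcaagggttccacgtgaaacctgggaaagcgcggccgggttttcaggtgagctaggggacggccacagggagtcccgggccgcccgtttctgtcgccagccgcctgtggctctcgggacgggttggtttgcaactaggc
A half-site was found in 7 of the 22 promoters of the list that were given and in 8.36% of 32851 mouse promoters of this length. The match is a description and no measure of binding.

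The lipid storage genes Plin4 and Fitm1 rose. Plin4 encodes a perilipin that coats lipid droplets (chromosome 17, 56100591 to 56109803, placed by its identifier without the version). It was measured at 5.76, 5.72, 7.65, 3.94 and 3.91 CPM at 3 weeks and at 17.2, 19.9, 16.7, 5.97 and 44.4 CPM at 6 months. Replicate 4 stayed within the range of the early libraries and replicate 5 was the highest. The log2 fold change was 1.95 ± 0.34 (adjusted p = 0.0264) and 1.47 ± 0.26 without replicate 5 (adjusted p = 0.0219). Without replicate 4 it was 2.18 ± 0.26. Plin4 overlaps Hdgfl2 on the opposite strand, which had 359% of its counts, and whether the counting used the strand is not stated, so reads of the pair may not have been separated.

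Fitm1 encodes a protein of the endoplasmic reticulum that binds fat and promotes droplet formation (chromosome 14, 55575617 to 55576954). Its level was 6.13, 6.37, 6.15, 7.18 and 3.91 CPM at 3 weeks and 16.2, 19.5, 18.1, 21.7 and 101 CPM at 6 months. All late libraries lay above all early ones, and replicate 5, the library with male transcripts, stood far above the rest. With it the log2 fold change was 2.57 ± 0.46 (adjusted p = 0.0303) and without it 1.66 ± 0.28 (adjusted p = 0.0201). Fitm1 was higher at 6 months in the Rosa26 livers as well, without overlap, at 3.74 to 6.47 CPM and then 8.20 to 28.0 CPM. The change there was 1.72 ± 0.46 (adjusted p = 0.0989).

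On the list of fatty acid oxidation and ketogenesis, which also holds lipid droplet genes, Plin4 was the sole member of 35 that rose and none fell, with a median of 0.18. At an unadjusted p under 0.05, 10 were higher and 1 lower, where 5.58% and 3.36% of all genes were. Without replicate 5 these counts were 4 and 1, where the shares over all genes were 6.38% and 3.7%. Cd36, a fatty acid transporter, did not overlap between the times (52.2 to 75.1 CPM against 109 to 141 CPM) at 1.02 ± 0.24 (adjusted p = 0.12; 0.98 ± 0.25 and 0.135 without replicate 5). With Mogat1 it was 1 of 2 members without overlap, where 1.47% of all genes tested had none. Cd36 passed both thresholds in the Rosa26 livers, as the sole member of the list that rose there, and none fell. Other members followed replicate 5. Cidec and Cidea, a pair of lipid droplet proteins, had 60.6 and 11.3 CPM in that library, while the other late libraries had 2.07 to 3.23 and 0 to 0.124 CPM. Their log2 fold changes of 2.59 and 5.01 became 0.19 and -0.54 without it. No gene passed among 27 of fatty acid synthesis, with a median of -0.09. Without replicate 5, Scd2, a desaturase that makes monounsaturated fatty acids, rose by 3.06 ± 0.61 (adjusted p = 0.0484). It was measured at 19.2, 29.4, 36.8, 35.0 and 57.5 CPM at 3 weeks and at 77.9, 214, 531, 366 and 10.8 CPM at 6 months, where replicate 5 was the sole library below the early range. Scd2 was also higher at 6 months in the Rosa26 livers, at 6.18 to 14.1 CPM and then 14.5 to 213 CPM. The change there was 2.68 ± 0.74 (adjusted p = 0.114).

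The other genes that rose outside the immunoglobulins were Efna5, Dmrta1, Ctcflos and Tmem28. Efna5 encodes ephrin-A5, a membrane ligand of Eph receptors (chromosome 17, 62604184 to 62881317). It had 2.30, 2.39, 1.89, 2.67 and 2.43 CPM at 3 weeks and 3.68, 5.19, 5.14, 5.48 and 4.68 CPM at 6 months, with no overlap. The change of 1.04 ± 0.16 (adjusted p = 0.00821; 1.06 ± 0.17 without replicate 5) lay close to the fold threshold. Dmrta1, a DM-domain transcription factor gene (chromosome 4, 89679436 to 89694772), had 1.06, 1.03, 1.26, 1.23 and 0.668 CPM and then 2.11, 2.78, 2.41, 1.96 and 4.83 CPM. Its change was 1.41 ± 0.25 (adjusted p = 0.0303) and 1.14 ± 0.21 without replicate 5 (adjusted p = 0.0282). The Rosa26 livers had changes of 0.38 ± 0.16 for Efna5 and 0.94 ± 0.24 for Dmrta1 (adjusted p = 0.3 and 0.081).

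Ctcflos is a long noncoding RNA gene antisense to Ctcfl (chromosome 2, 173110818 to 173133204). Its level was 5.67, 2.39, 5.81, 1.66 and 2.19 CPM at 3 weeks and 7.43, 11.0, 9.71, 10.7 and 19.3 CPM at 6 months. The early libraries fell into a higher pair and 3 lower ones, all of them below the late libraries. The change was 1.71 ± 0.31 (adjusted p = 0.0303) and 1.45 ± 0.29 without replicate 5 (adjusted p = 0.0484). Ctcfl, on the other strand, had 21.9% of its counts. Tmem28 encodes a membrane protein (chromosome X, 99821021 to 99848790) and was low throughout, with 3, 5, 4, 5 and 3 counts at 3 weeks and 22, 26, 10, 32 and 86 counts at 6 months. Its log2 fold change was 3.12 ± 0.54 (adjusted p = 0.0264) and 2.39 ± 0.42 without replicate 5 (adjusted p = 0.0219). For Tmem28 in the Rosa26 livers it was 1.94 ± 0.64 (adjusted p = 0.182). Of the 13 called genes 3 lie on the X chromosome, Gria3, Eda2r and Tmem28, where 3.03% of the genes tested lie. The calls of Dmrta1, Ctcflos, Plin4, Fitm1 and Tmem28 were each lost when at least 3 of the early HIRA libraries were left out in turn.

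Immunoglobulin genes formed the largest group, with 4 of the 13 calls. Igkc encodes the constant part of the kappa light chain (chromosome 6, 70726435 to 70726966). It had 22.2, 13.7, 11.7, 14.9 and 14.1 CPM at 3 weeks and 196, 94.3, 76.5, 71.6 and 42.0 CPM at 6 months. Each late library stood above the highest early library, with replicate 5 the lowest of the late ones. The change was 2.65 ± 0.50 (adjusted p = 0.0439) and 2.84 ± 0.49 without replicate 5 (adjusted p = 0.0211).

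Ighg1, the constant part of the IgG1 heavy chain (chromosome 12, 113325240 to 113330523), went from 7, 24, 17, 10 and 22 counts to 3000, 381, 678, 222 and 448 counts. Replicate 1 of 6 months held more than all the other HIRA libraries together. Its change was 5.71 ± 0.85 (adjusted p = 0.00821) and 5.85 ± 0.86 without replicate 5 (adjusted p = 0.0089), and it was called in all 20 fits that left out a library. Without replicate 1 of 6 months it was 4.71 ± 0.72 (adjusted p = 0.017). By limma-voom with all libraries it was 5.30 ± 1.28 and did not pass (adjusted p = 0.153). The variable segment Ighv1-53 (chromosome 12, 115158403 to 115158835) went from 6, 3, 3, 1 and 4 counts to 230, 29, 107, 51 and 7 counts, at 4.44 ± 0.83 (adjusted p = 0.0439), and at 3.72 ± 0.78 without replicate 1 of 6 months (adjusted p = 0.0677). Igkv6-25, a kappa variable segment (chromosome 6, 70215400 to 70215957), went from 0, 1, 1, 0 and 2 counts to 148, 39, 114, 114 and 30 counts, at 6.50 ± 1.16 (adjusted p = 0.0303). Without replicate 5 these were 4.72 ± 0.73 (adjusted p = 0.0143) and 6.70 ± 1.15 (adjusted p = 0.0211). Variable segments resemble each other closely and the counting could assign reads of a segment to a relative, so values of single segments are uncertain. The calls of Igkc, Ighv1-53 and Igkv6-25 were lost when any of the early HIRA libraries was left out, and when HIRA 6 months replicate 1 or 4 was, and those of Igkc and Ighv1-53 in further fits that left out a library.

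All 178 immunoglobulin genes tested were taken as a set, gathered after their values were seen. Of these, 162 had a positive fold change, 4 rose and none fell, with a median of 1.49. Of all genes tested 55.4% were positive and 0.0481% rose, with a median of 0.03. Without replicate 5, where 0.0918% of all genes rose, 8 of the immunoglobulin genes did. Their summed level was 116, 69.7, 56.7, 81.6 and 67.1 CPM at 3 weeks and 816, 377, 377, 356 and 156 CPM at 6 months, without overlap. In the Rosa26 livers the sum was 50.1 to 147 CPM at 3 weeks and 88.5, 218, 350, 416 and 686 CPM at 6 months, where replicate 1 lay within the early range. There 143 of the 178 were positive and 2 rose, with a median of 1.19, where 0.144% of all genes rose.

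Markers of B and plasma cells were examined beside them. All 17 had positive fold changes in the HIRA livers, with a median of 0.55, where 55.4% of all genes tested were positive. Of the 17, 1 rose, Igkc, itself an immunoglobulin gene, where 0.0481% of all genes did. Without replicate 5, 4 rose, adding Ighm, Jchain and Igha, where 0.0918% of all genes did. Ighm, the IgM heavy chain, had 36.5, 19.8, 20.1, 22.2 and 21.8 CPM and then 173, 81.8, 123, 107 and 46.0 CPM (2.33 ± 0.43 without replicate 5, adjusted p = 0.0282; 2.14 ± 0.44 and 0.0789 with it). Jchain, which joins IgM and IgA into polymers, was at 2.58 ± 0.46 and Igha, the IgA heavy chain, at 2.24 ± 0.40 without it (adjusted p = 0.0219 for each). The segments Igkv4-55 (4.15 ± 0.77, adjusted p = 0.0279) and Ighv8-8 (4.88 ± 0.91, adjusted p = 0.0284) were called in that fit too. Ighv8-8 had 3, 1, 1, 2 and 1 counts at 3 weeks and 4, 25, 26, 146 and 9 counts at 6 months. Its call was lost when replicate 4 of 6 months or any HIRA library of 3 weeks was left out as well. Cd79b and Pax5, markers of B cells before the plasma cell stage, had 0.49 ± 0.29 and 0.55 ± 0.31 (adjusted p = 0.655 and 0.646). The summed list lay at 375 to 431 CPM at 3 weeks and at 875, 666, 685, 630 and 384 CPM at 6 months, with replicate 5 inside the early range. None of the 17 was at 0 in any HIRA library. Over the same list the Rosa26 livers had a larger median, 0.79, and 2 of the 17 rose there and none fell, where 0.144% of all genes rose.

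**Figure D3:**
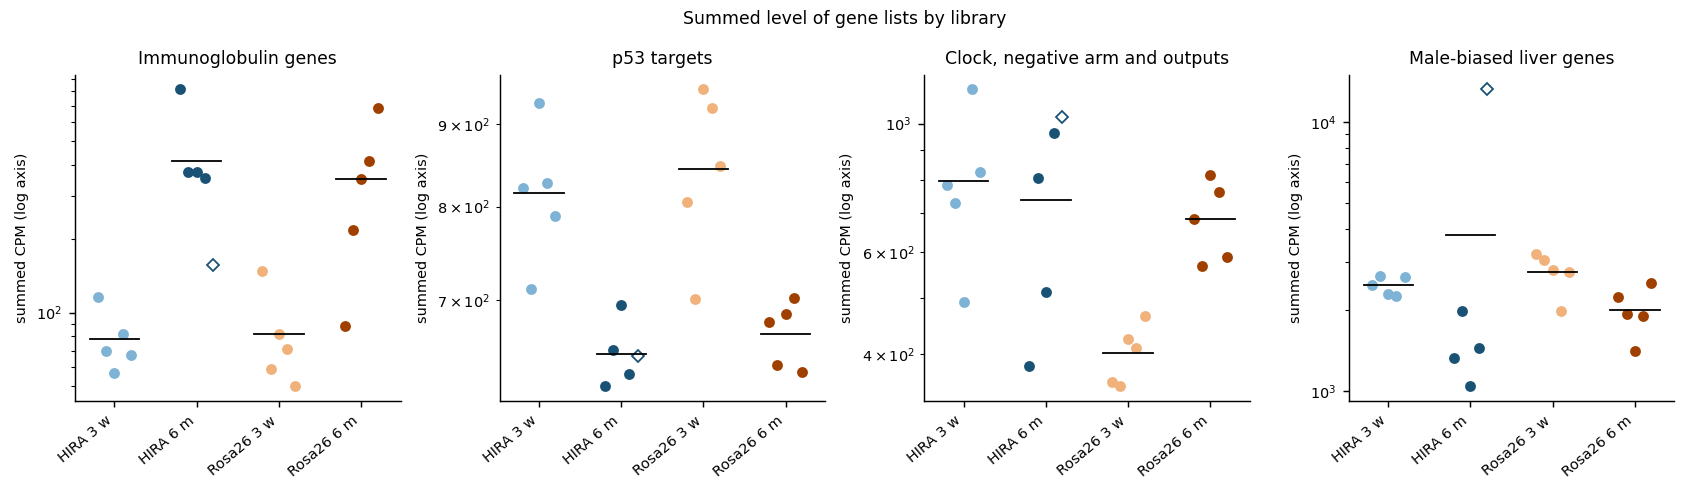
Summed CPM of 4 gene lists in each library, on log axes, in the 4 groups of 5 libraries, with lines for group means and an open diamond for HIRA 6 months replicate 5. Immunoglobulin sums are higher and p53 target sums lower in every late HIRA library, the clock sums of the times are separate in the Rosa26 livers and overlap in the HIRA livers, and the male-biased sum of 13210 CPM belongs to replicate 5.

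Beside the immunoglobulin genes, Jchain and Scd2, leaving out replicate 5 brought in Cyp2c54, Cyp2d9, Sult2a5, Gpnmb, Krt20 and Htra3. The first 3 are enzymes of drug and steroid metabolism whose families hold close copies, so that their counts are uncertain. Cyp2c54 had 4249, 3238, 1730, 3279 and 5007 counts at 3 weeks and 842, 1226, 844, 817 and 6253 counts at 6 months. Replicate 5 exceeded all early libraries and the other late ones lay below them. The change was -1.99 ± 0.37 without replicate 5 (adjusted p = 0.0279) and -0.76 ± 0.53 with it (adjusted p = 0.736).

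Cyp2d9, a male-biased enzyme of the liver, had 55.2, 50.6, 27.3, 41.0 and 56.6 CPM and then 20.1, 16.2, 16.8, 10.5 and 991 CPM. Its sign turned, from 2.19 ± 0.91 with replicate 5 (adjusted p = 0.487) to -1.53 ± 0.28 without it (adjusted p = 0.0219). Sult2a5, a sulfotransferase, had 6.31, 4.92, 10.3, 15.5 and 11.4 CPM and then 35.8, 48.4, 26.1, 46.1 and 0 CPM. It rose by 2.01 ± 0.35 without replicate 5 (adjusted p = 0.0219) and had 1.69 ± 0.62 with it (adjusted p = 0.406). Sult2a5 had 3.60 to 15.1 CPM and then 28.3 to 54.3 CPM in the Rosa26 livers, at 2.27 ± 0.63 (adjusted p = 0.115). Cyp2d9 and Htra3 were beyond the limit of the naming rule and were named after their values were seen.

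Gpnmb, a glycoprotein of lipid-laden macrophages, had 2, 15, 6, 10 and 11 counts and then 52, 27, 757, 25 and 11 counts. Most of its late counts came from replicate 3, and without replicate 5 it had 4.44 ± 0.87 (adjusted p = 0.0465). That call was lost when replicate 3 of 6 months or any library of 3 weeks was left out as well, and without replicate 3 alone the value was 1.64 ± 0.53 (adjusted p = 0.268). Krt20, a keratin of epithelia, had 0, 1, 1, 0 and 1 counts and then 11, 29, 28, 43 and 0 counts. Its log2 fold change was 4.90 with replicate 5 (adjusted p = 0.0588) and 5.21 without it (adjusted p = 0.0043). Krt20 was higher at 6 months in the Rosa26 livers too, with 0 counts in all 5 libraries of 3 weeks and then 3, 1, 7, 4 and 5 counts. The log2 fold change there was 5.01 (adjusted p = 0.161). Htra3, a secreted protease, had 1.57 to 2.56 CPM at 3 weeks and 4.34, 4.55, 8.46, 3.81 and 2.90 CPM at 6 months (1.33 ± 0.23 without replicate 5, adjusted p = 0.0206). Of the 12 genes called only without replicate 5, Krt20 kept its call when each of the other 9 HIRA libraries was left out as well, and each of the other 11 lost it in at least 3 of these 9 fits.

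Lists of liver function held few calls. Of 40 cytochrome P450 and xenobiotic genes none passed with all libraries and 2 fell without replicate 5, Cyp2c54 and Cyp2d9. Cyp1a2, an enzyme of hepatocytes near the central vein, had 668 to 957 CPM at 3 weeks and 363 to 595 CPM at 6 months, without overlap, at -0.80 ± 0.18 (adjusted p = 0.109). Abcb11, the bile salt export pump, went from between 628 and 795 CPM to between 490 and 566 CPM, at -0.38 ± 0.09 (adjusted p = 0.14). None passed among 23 hepatocyte transcription factors (median 0.04) and 41 secreted hepatocyte proteins (median -0.00). The same held for the lists of 25 genes of cholesterol synthesis, 26 of bile acids, 35 of gluconeogenesis and the urea cycle, 20 pericentral and 16 periportal genes, whose medians lay between -0.14 and 0.14, and none of these lists held a call without replicate 5. Among 13 genes of the HIRA complex and H3.3 none passed, with Nasp, a histone chaperone, the furthest at -0.36 ± 0.12 (adjusted p = 0.359). The 32 proliferation genes had a median of -0.25, 9 of them positive, and -0.12 without replicate 5, the late library with the lowest level of 15 of them, and none passed. No member passed either on the lists of acute phase (19 genes, median 0.11), phase 2 enzymes and transport (30, 0.03), the growth hormone axis (21, -0.12), interferon response and antigen presentation (46, 0.07), stress of the endoplasmic reticulum (28, 0.13), heat shock (14, -0.13), oxidative stress (20, 0.11), immediate early genes (23, 0.23) and hemoglobin (5, 0.49). Without replicate 5 the medians were 0.07 for acute phase, -0.05 for phase 2 enzymes and transport, 0.23 for the interferon response, 0.09 for stress of the endoplasmic reticulum and -0.00 for oxidative stress. The 13 mitochondrially encoded genes had a median of 0.24 and -0.02 without replicate 5, in which all 13 were at their highest late level, with a sum of 65470 CPM against 32500 to 48990 CPM in the other HIRA libraries.

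The 28 male-biased genes had a median of 1.91 with replicate 5 and -0.23 without it, and none passed with all libraries. Their summed level was 2251 to 2671 CPM in all early libraries, 1040 to 1977 CPM in late replicates 1 to 4 and 13210 CPM in replicate 5. The 35 female-biased genes had medians of -0.13 and 0.12, and summed to 1492 CPM in replicate 5 against 4683 to 7859 CPM in the other HIRA libraries. Cdkn2a, which encodes the senescence marker p16, went from 0.138, 0, 0.194, 0.263 and 0.143 CPM to 0.743, 0.455, 0.912, 1.91 and 0.305 CPM, without overlap, at 2.5 ± 0.61 (adjusted p = 0.135; 2.70 ± 0.60 and 0.0799 without replicate 5). Its list of 18 genes of senescence and secretion had a median of 0.51 and no call.

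Among markers of cells other than hepatocytes, those of T and NK cells and of stellate cells had mostly positive values. Of 25 T and NK cell genes 24 had positive values (median 0.86), and of 27 stellate and matrix genes 25 did (median 0.38), while none of either list passed. Over all genes tested 55.4% were positive. At an unadjusted p under 0.05, 7 genes of each list were higher with all libraries, and 15 T and NK genes and 17 stellate and matrix genes without replicate 5, where the shares of all genes were 5.58% and 6.38%. The summed T and NK level was 17.6 to 33.4 CPM at 3 weeks and 44.4, 29.9, 88.7, 56.5 and 11.7 CPM at 6 months. Stellate and matrix genes summed to 612 to 814 CPM and then to 748, 788, 1514, 792 and 470 CPM. Replicate 3 was the highest late library for 20 of the 25 T and NK genes and 23 of the 27 stellate and matrix genes. Replicate 5 was the lowest for 25 of 25 and 25 of 27, for all 17 B and plasma cell genes, and for 20 of 22 Kupffer cell and macrophage genes. Col1a1, a fibrillar collagen gene, had 97.5 CPM in replicate 3 and 6.81 to 20.6 CPM in the other HIRA libraries. The macrophage list had a median of 0.21 (0.44 without replicate 5, where Gpnmb rose) and summed to 754 to 1136 CPM and then 866, 798, 1170, 1821 and 371 CPM, with the scavenger receptor Cd163 at -1.27 ± 0.41 (adjusted p = 0.322). Medians were -0.08 for 20 sinusoidal endothelial, 0.10 for 17 biliary and 0.33 for 13 neutrophil markers, and 0.00, 0.28 and 0.56 without replicate 5, and none of these markers passed in either fit. Elane, Mpo, Camp, Mmp8 and Ly6g, of the neutrophil list, were at 0 in at least 1 HIRA library. The part of these cells in the calls was not tested.

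**Figure D4:**
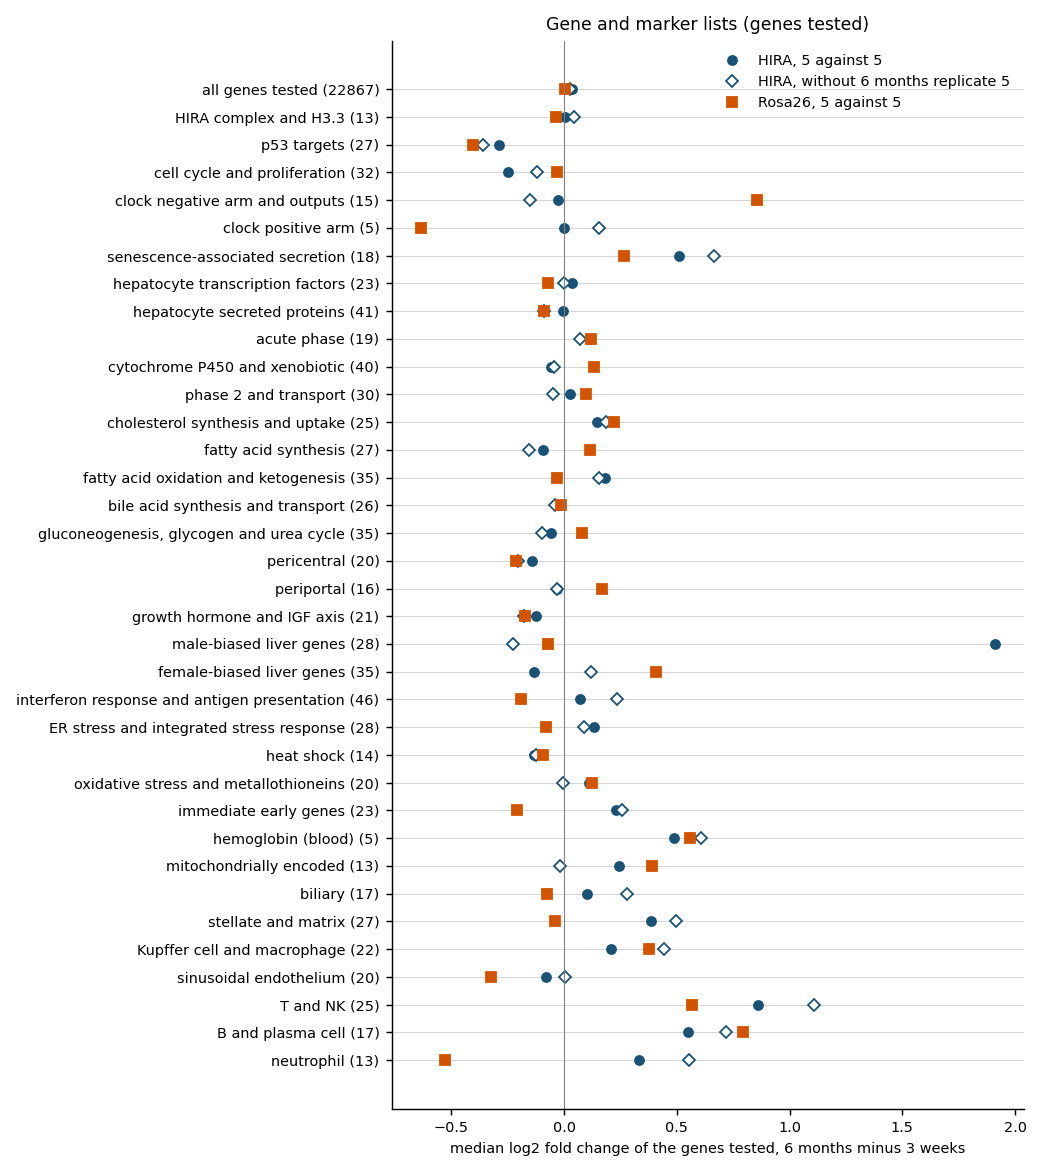
Median log2 fold change, 6 months minus 3 weeks, of each gene or marker list, with the number of genes tested, for the HIRA livers with all libraries (filled circles) and without 6 months replicate 5 (open diamonds) and for the Rosa26 livers (squares). The circles depart furthest from 0 for male-biased genes (1.91), which return to -0.23 without replicate 5, and the arms stand apart for the clock lists. A list of 5 genes of the sex chromosomes is not drawn.

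The Rosa26 livers allowed the change over time to be compared between guides. Over the same months 37 genes were called there (0.162%), 18 higher and 19 lower, and by adjusted p alone 33 rose (0.144%) and 41 fell (0.179%). Called in both arms were 3 genes, Gria3, Eda2r and Igkc, which are 23.1% of the HIRA calls and 8.11% of the Rosa26 calls. Of the 13 genes called in the HIRA livers, 12 had the same sign in the Rosa26 livers and all 13 were larger in the HIRA livers, the arm by which they were chosen. Of the 37 called in the Rosa26 livers, 33 had the same sign in the HIRA livers and 32 were larger in the Rosa26 livers. Across 12903 genes with a mean of at least 1 CPM, the fold changes of the arms had a Pearson's r of 0.351 and a Spearman's rho of 0.311 (0.429 and 0.297 without replicate 5), which describe genes that are not independent replicates. The Rosa26 count was 2 without Rosa26 6 months replicate 4 and 83 without HIRA 6 months replicate 5, which enters that fit through the shared estimate of spread.

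**Figure D5:**
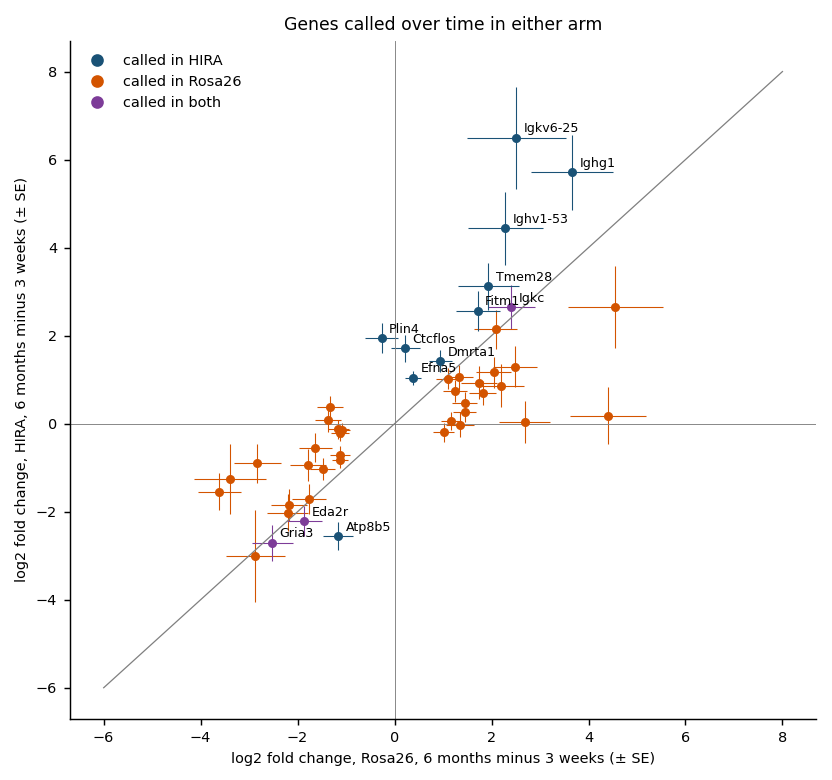
Log2 fold change over time in the HIRA livers (vertical) against the Rosa26 livers (horizontal) for the genes called in either arm, with SE bars, the called HIRA genes named and a line where the arms are equal. Gria3, Eda2r and Igkc lie near the line, while Plin4 has 1.95 in the HIRA livers and -0.27 in the Rosa26 livers.

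No gene passed a test of the difference between the arms in its change over time. The smallest adjusted p was 0.614 by edgeR, where 1514 genes (6.62%) had an unadjusted p under 0.05, and DESeq2 and limma-voom also called 0 genes. Without HIRA 6 months replicate 5 the count was 0 as well (1752 unadjusted). Plin4 had the smallest p, with a difference of 2.22 ± 0.47 (unadjusted p = 0.00012). In the Rosa26 livers Plin4 ranged from 5.26 to 8.11 CPM at 3 weeks and from 4.40 to 7.60 CPM at 6 months. Without HIRA 6 months replicate 4, the late library with little Plin4, this difference was 2.45 ± 0.36 and passed the test (adjusted p = 0.0328), as the sole gene. For Ctcflos the difference was 1.49 ± 0.42 (unadjusted p = 0.00202), with 5.40 to 11.9 CPM in the early Rosa26 livers and 8.95 to 10.9 CPM in the late ones. For Atp8b5 it was -1.39 ± 0.44 (unadjusted p = 0.00486), with -1.16 ± 0.31 in the Rosa26 livers (adjusted p = 0.101). For Htra3 it was 1.29 ± 0.33 (unadjusted p = 0.000941), with -0.09 ± 0.24 in the Rosa26 livers. These 3 had adjusted p of 0.614, 0.662 and 0.614.

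Other genes with a small unadjusted p had values of opposite sign in the arms. Ppard, a nuclear receptor that controls fat metabolism, had 0.37 ± 0.26 in the HIRA livers and fell by 1.34 on the log2 scale in the Rosa26 livers (adjusted p = 0.0309), a difference of 1.71 ± 0.37 (unadjusted p = 0.000148). The early levels were 20.8 to 47.0 CPM in the Rosa26 livers and 9.59 to 17.6 CPM in the HIRA livers. Nol10, of ribosome assembly, Smarcd1, of a chromatin remodelling complex, and Brpf1, of a histone acetyltransferase complex, differed by 0.79 ± 0.18, 0.78 ± 0.18 and 0.52 ± 0.13. Car14, a carbonic anhydrase, Dleu2, a noncoding RNA, and Flcn, the folliculin gene, differed in the other direction, by -0.82 ± 0.17, -0.76 ± 0.19 and -0.68 ± 0.17. Car14 overlaps Aph1a on the opposite strand, with 117% of its counts, and is uncertain. None of these passed (adjusted p = 0.614 for each).

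Circadian clock genes passed the test over time in the Rosa26 livers and not in the HIRA livers, while no difference between the arms passed. In the clock, PER, CRY and NR1D proteins restrain the activators CLOCK and ARNTL, and DBP and TEF carry the rhythm to output genes. Of 15 genes of the negative arm and outputs none passed in the HIRA livers, with a median of -0.03, while 5 rose in the Rosa26 livers (Dbp, Per3, Tef, Nr1d2 and Cry2), with a median of 0.86. The calls of Dbp, Nr1d2, Per3 and Tef in the Rosa26 livers were all lost by limma-voom and without any of Rosa26 3 weeks replicates 1, 3 and 4 or Rosa26 6 months replicates 3 and 4. Of the 15 genes, 8 had an unadjusted p under 0.05 for the difference between the arms, against 6.62% of all genes. Dbp had 47.6, 38.7, 9.05, 104 and 55.2 CPM in the early HIRA livers and 3.75, 40.4, 20.5, 110 and 115 CPM in the late ones. The late values spread both below and above the early ones, with a change of 0.18 ± 0.64 (adjusted p = 0.962). In the Rosa26 livers it had 1.52 to 3.54 CPM and then 18.1 to 95.1 CPM, at 4.40 ± 0.79 (adjusted p = 0.0227). The difference was -4.22 ± 1.00 for Dbp and -1.21 ± 0.31 for Nr1d2 (unadjusted p = 0.0004 and 0.000729, adjusted p = 0.614 for both). Dbp overlaps Sphk2 on the opposite strand, with 201% of its counts. The summed list was lowest in the early Rosa26 livers, at 352 to 466 CPM, against 492 to 1146 CPM in the early HIRA livers, 381 to 1027 CPM in the late HIRA livers and 567 to 814 CPM in the late Rosa26 livers. The 5 genes of the positive arm had medians of -0.00 in the HIRA livers and -0.63 in the Rosa26 livers, and none passed. The hour of collection is not given in the labels, and its part in these values was not tested.

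The HIRA livers differed more among themselves at 6 months than at 3 weeks. Over 12903 genes the median SD of log2 CPM between replicates was 0.162 at 3 weeks and 0.228 at 6 months, and 73.1% of genes had the larger SD at 6 months. Without replicate 5 the late value was 0.195 and the share 63.1%. In the Rosa26 livers the medians were 0.181 and 0.183, and 53.7% of genes were wider at 6 months. Genes share these libraries and are not independent, so the shares are given without a test.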

How the data were processed

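Poly-A RNA of whole livers was sequenced by the authors, aligned with STAR to mm10 and deposited as counts per gene, with HOMER named for counting in the study's methods and HTSeq in the submitters' notes. The authors also deposited FPKM values, the counts scaled to gene length and library size, which were used as an alternative scale only. The use of strand in counting is not given in the sources used here. Groups came from the sample labels, and the labels do not say more of the replicates than that they are separate samples.

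Genes with 10 or more counts over the 20 libraries were tested with edgeR 4.0.16 (R 4.3.3), by the quasi-likelihood test with TMM scaling, 1 mean for each of the 4 groups and Benjamini-Hochberg adjustment. Calls needed an absolute log2 fold change above 1 and an adjusted p under 0.05. The SE of an edgeR log2 fold change was taken as its absolute value divided by the square root of the F statistic. Such an SE is approximate, most of all for genes with few counts. Differences between arms were tested as an interaction in the same fit. DESeq2 1.42.0 and limma 3.58.1 were alternatives, as were other filters and scaling, the replicate number as a block and leaving out each library. The FPKM alternative used log2(FPKM + 1). Coordinates are of GRCm38 from GENCODE, which matched 54673 of the 55421 identifiers (98.7%).

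Named were Hira, list members, up to 15 genes in each direction called with and without HIRA 6 months replicate 5, up to 10 called in only 1 of these fits, all with a mean of at least 1 CPM in the higher group, and up to 5 in each direction with the smallest p of the difference between arms. The comparison, gene lists and rules were chosen with earlier results of these data known, and the lists are no independent support. Libraries with the same group were not duplicates, with a chi-square of at least 13.7 per degree of freedom.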

Additional observations from a re-analysis of the deposited data

Results flagged for a closer look

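In groups of 5 libraries, 80 values, as log2(value + 1) of the CPM, count or sum, were tested for a library whose gap to its nearest neighbour exceeded 0.71 of the group's range. Past it stood 11 values, 8 of them in HIRA 6 months replicate 5. Chance marks about 1 value in 20, but the sex-linked and sex-biased measures and Cyp2c54, Cyp2d9 and Sult2a5 were chosen because this library stood apart in them or changed their call, so their number is no comparison with chance. In that library the ratio was 0.845 for Fitm1, 0.77 for Cyp2c54, 0.863 for Cyp2d9, 0.856 for the Y-linked genes and 0.747 for the male-biased sum, all as the highest library. It was 0.846 for Sult2a5, 0.984 for Xist and 0.784 for the female-biased sum, as the lowest. Among the early HIRA libraries, replicate 5 was lowest for Fitm1 at 0.73 and replicate 1 highest for Ighm at 0.816. HIRA 6 months replicate 3 was highest for Gpnmb at 0.781.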

How the results depend on the processing

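The count of 13 genes changing in the HIRA livers was 74 by DESeq2, 6 by limma-voom, 2 on the FPKM scale, 25 with no filter on low counts and 11 with the libraries of that arm alone, 5 of them among the 13, and ranged from 5 to 25 when a library was left out. The Rosa26 count of 37 was 157 by DESeq2, 1 on the FPKM scale, 77 with the libraries of that arm alone and 74 without the fold threshold, and ranged from 2 to 83 with a library left out. The count of 25 without HIRA 6 months replicate 5 was 96 by DESeq2 and ranged from 5 to 32 when each of the other 9 HIRA libraries was left out as well. These alternatives without replicate 5 were chosen after seeing the data. The difference between arms gave 0 genes in every fit except 1 without HIRA 6 months replicate 4. Over the 13 genes, 28 of 104 values under other tools, scalings and filters and 56 of 260 with a library left out lost the call, and 0 changed sign. Cyp2d9, at 2.19, was -0.35 by limma-voom, -0.033 on the FPKM scale and -1.53 without HIRA 6 months replicate 5, and ranged from -1.53 to 2.51 with a library left out. The causes were not tested.

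With the replicate number as a block, 26 genes were called in the HIRA livers, 12 of the 13 among them, 61 in the Rosa26 livers and 50 without HIRA 6 months replicate 5. The deviations of same-numbered HIRA libraries correlated at -0.0256 to 0.275, and not every late library correlated best with its own number, so the samples share only a number. A test of the difference between arms on the libraries of 1 arm cannot be made.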
